A study of Mus musculus with 31 samples.

Results

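The STAT family of transcription factors was followed across 2 bulk RNA-seq experiments in mice, one in primary microglia and one in hippocampus. The members were the rows named Stat2, Stat3, Stat4, Stat5a, Stat5b and Stat6 in the microglial count table, and the rows with the same gene identifiers in the hippocampal table. They made up 6 of the 54532 genes of the microglial table and 6 of the 48795 genes of the hippocampal table. Of the 6 members, 5 passed the filter on low counts in each table and were tested, and Stat4 did not.

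Primary microglia came from the cortices of pups at postnatal days 1 to 3. They were wild type (WT) or carried a constitutive deletion of Cgas (KO, Cgas-/-). Cgas encodes the cytosolic DNA sensor cGAS, which signals through STING to produce type I interferon. Cultures of each genotype received vehicle, tau fibrils (0N4R tau, 2 µg/ml) or herring testis DNA (HT-DNA, 1 µg/ml), an agonist of cGAS, and RNA was taken 6 h later. Each of these 6 groups had 3 libraries. All cells had met granulocyte–macrophage colony-stimulating factor (GM-CSF), a cytokine that signals through STAT5, during culture. The labels do not say whether the 3 libraries of a group came from separate cultures, so p-values measure the spread between libraries, which may be technical. WT and KO cells came from different pups, so differences between KO and WT cells cannot be told apart from differences between their cultures. Hippocampi came from mice aged 8 to 9 months, 7 non-transgenic (Ntg, 3 females and 4 males) and 6 P301S (3 females and 3 males), which carry a transgene for human tau with the P301S mutation. No Cgas genotype is given for these mice.

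STAT proteins wait in the cytoplasm until a cytokine receptor recruits a Janus kinase (JAK), which phosphorylates the receptor and then the STAT. The phosphorylated STATs pair, enter the nucleus and bind promoters, among them those of their own inhibitors, the SOCS proteins. STAT2 joins IRF9 in the interferon-stimulated gene factor that answers type I interferon. STAT3 answers the IL-6 family and IL-10, STAT4 answers IL-12, STAT5A and STAT5B answer GM-CSF, IL-3 and related cytokines, and STAT6 answers IL-4 and IL-13. In the brain, STAT2 targets mark the interferon response of microglia and STAT3 is best known for its part in reactive astrocytes. RNA levels do not show phosphorylation, so the measurements concern the transcripts of these factors and of their targets, not the activity of the proteins.

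The members sit in 3 places of the mouse genome (GRCm38). Stat2 lies at chr10:128270559-128292849 on the plus strand, with Stat6 at chr10:127642986-127660957 on the same strand. Stat4 lies at chr1:51987148-52107189 on the plus strand. The other members form a cluster, with Stat5b at chr11:100780731-100850724 on the minus strand, Stat5a at chr11:100859351-100885169 on the plus strand and Stat3 at chr11:100885098-100939540 on the minus strand. The 3′ ends of Stat3 and Stat5a overlap by 72 exonic bases on opposite strands. Stat5a and Stat5b, which lie 8626 bases apart, are paralogs of similar sequence, whose identity was not computed here. Reads from the overlap, or from any stretch that the paralogs share, could have been counted for either gene or dropped. Values of Stat5a in particular are therefore uncertain.

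Stat2 was the member that moved most, and its promoter is shown because it is the 1 member whose upstream window held 2 of the 3 motifs searched. The 250 bases before its RefSeq start (GRCm38.p6, chr10:128270248-128270497, plus strand, 5′ to 3′) read as follows. The 3 motifs, searched on both strands, were GAAA and GAAA with 2 bases between them (the core of the element bound by the STAT2–IRF9 complex), TTC and GAA with 4 bases between them (the spacing preferred by STAT6) and TTC and GAA with 3 bases between them (the spacing typical of the other STATs). The first stretch of capitals matches the GAAA motif on the reverse strand and starts 222 bases before the RefSeq start, and the second matches TTC and GAA with 4 bases between them and starts 210 bases before it.
Stat2: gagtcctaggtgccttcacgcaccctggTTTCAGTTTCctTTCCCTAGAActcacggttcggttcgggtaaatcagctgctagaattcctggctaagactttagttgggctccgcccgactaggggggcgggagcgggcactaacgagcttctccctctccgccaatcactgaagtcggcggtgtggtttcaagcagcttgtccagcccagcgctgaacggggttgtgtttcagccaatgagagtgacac
Over 9 RefSeq promoter windows of the 6 members, each from 250 bases before to 50 after a start and read on both strands, the only other match was GAAAGTGAAA in the second promoter of Stat4, at 97 bases before the start. TTC and GAA with 3 bases between them matched in none of these windows. Among 32851 mouse promoter windows of the same length, 3.44% held the GAAA motif, 6.95% held TTC and GAA with 4 bases between them and 8.3% held them with 3. A match is a match of letters and shows no binding.

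The libraries held 25953296 to 35779977 counts in hippocampus and 17037459 to 25174764 in microglia. Levels are given as normalized CPM, the count of a gene scaled to the TMM-normalized total of its library, and a change is called where the adjusted p of edgeR's quasi-likelihood test over all tested genes is under 0.05. The labels held for the targeted genes. Cgas was at 18.8 to 27.2 CPM in WT vehicle microglia and 4.07 to 5.47 CPM in KO vehicle microglia, lower in KO under all 3 treatments with no overlap, although reads remained in every KO library. Counts assigned to Mapt, the mouse tau gene, went from 572 ± 46.9 CPM (SD, n = 7) in Ntg to 997 ± 88.5 CPM (SD, n = 6) in P301S hippocampus. Reads of the human tau transgene may have been counted there, which was not tested. Microglia and macrophage markers summed to 7822 to 12694 CPM in the cultures, and neuronal markers to 0.528 to 3.06 CPM. Siglech was at or under 3 counts in several groups.

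Stat2 in WT microglia rose with both stimuli. It stood at 352, 215 and 296 CPM in the 3 vehicle libraries, at 607, 541 and 599 CPM with tau, and at 776, 809 and 794 CPM with HT-DNA. Every stimulated library lay above every vehicle library, and every HT-DNA library above every tau library. In KO microglia the vehicle libraries were at 23.5, 25.9 and 22.9 CPM, the tau libraries at 162, 164 and 157 CPM and the HT-DNA libraries at 23.8, 27.5 and 26.9 CPM. KO cells therefore started at a fraction of the WT level, rose with tau to a level still below the lowest WT vehicle library, and with HT-DNA overlapped their vehicle group. The highest and lowest group means, WT with HT-DNA and KO with vehicle, differed 32.9-fold.

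**Figure D1:**
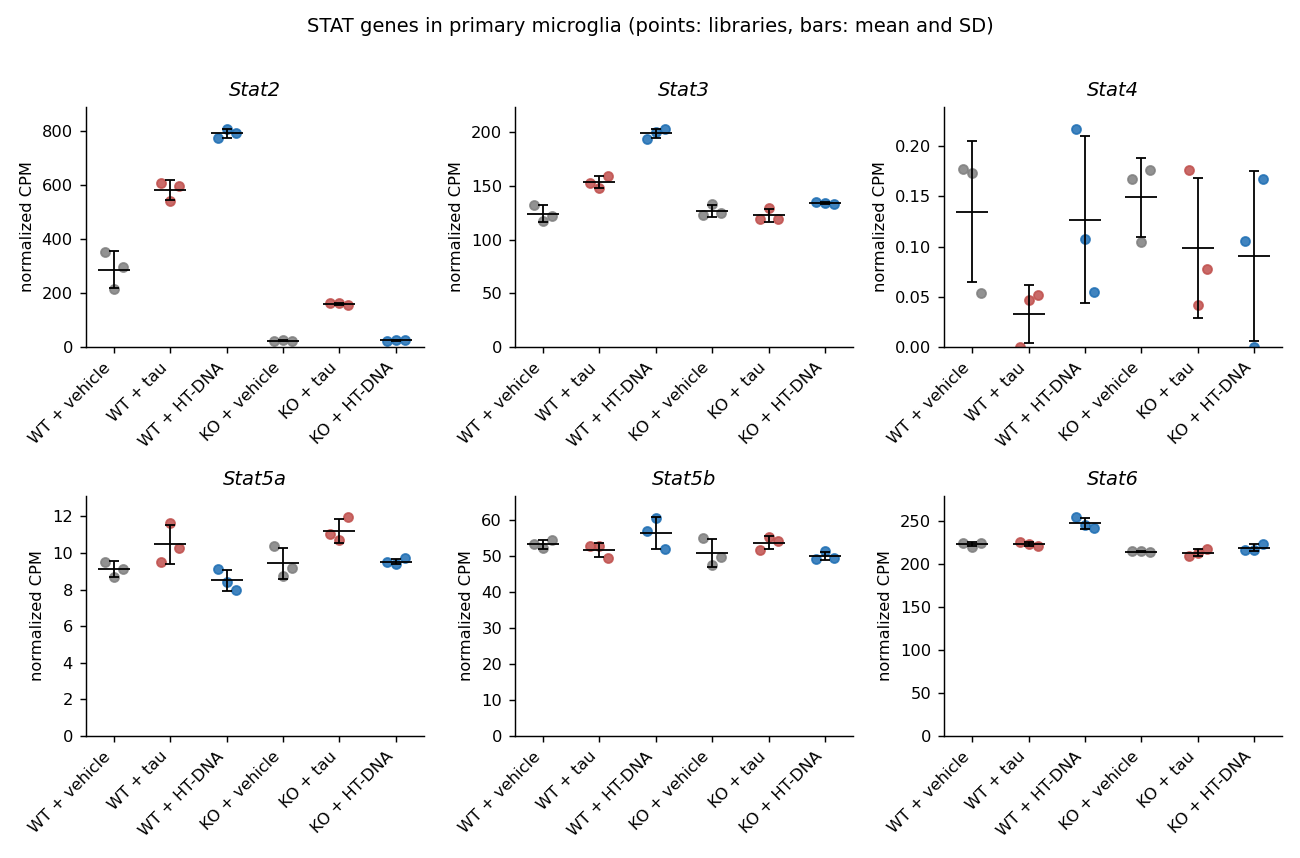
Normalized CPM (vertical axis, from 0, own scale in each panel) of the 6 STAT genes in the 18 microglial libraries, by genotype and treatment, with each library as a point and the mean ± SD of 3 libraries as bars. Stat2 spans 22.9 to 809 CPM and separates by genotype, Stat3 reaches 194 to 202 CPM in WT cells with HT-DNA and stays at 119 to 135 CPM in KO cells, and Stat4 stays at 0 to 4 counts per library.

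In WT cells the log2 fold change of Stat2 was 1.02 with tau (SE 0.09, adjusted p = 6.62e-10) and 1.46 with HT-DNA (SE 0.09, adjusted p = 1.56e-13). The direct comparison of tau with HT-DNA in WT cells gave −0.45 (SE 0.09, adjusted p = 0.000273). In KO cells tau raised Stat2 by 2.74 on the log2 scale (SE 0.11, adjusted p = 2.84e-17), a 6.69-fold change, whereas the change with HT-DNA was 0.12 (95% interval −0.13 to 0.37, adjusted p = 0.761). Leaving out each library in turn moved the WT tau value between 0.85 and 1.19, and no such fit changed a Stat2 call in microglia.

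The treatment effects on Stat2 differed between genotypes in both directions. The tau response was larger in KO than in WT cells by 1.72 on the log2 scale (SE 0.14, adjusted p = 2.10e-09), and the HT-DNA response was smaller by 1.34 (log2 difference −1.34, SE 0.15, adjusted p = 4.15e-08). On the linear scale the order for tau was the opposite, since tau added 295 CPM to the WT mean and 137 CPM to the KO mean. HT-DNA added 505 CPM in WT and 1.98 CPM in KO cells. KO cells were lower than WT cells in Stat2 under each treatment, with log2 fold changes of −3.58 with vehicle, −1.85 with tau and −4.92 with HT-DNA and adjusted p of 4.41e-20, 2.05e-15 and 9.25e-24.

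Stat3 followed a different course. It stood at 133, 117 and 122 CPM in WT vehicle libraries, at 153, 148 and 159 CPM with tau and at 194, 200 and 202 CPM with HT-DNA, and these 3 groups did not overlap. In KO cells it stood at 122, 133 and 125 CPM with vehicle, at 119, 130 and 119 CPM with tau and at 135, 134 and 133 CPM with HT-DNA. The KO vehicle and WT vehicle libraries overlapped, so unlike Stat2 this member showed no genotype difference before stimulation that passed the test (log2 fold change 0.03, adjusted p = 0.576).

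With tau the log2 fold change of Stat3 was 0.31 in WT cells (SE 0.05, adjusted p = 7.16e-06) and −0.05 in KO cells (95% interval −0.15 to 0.05, adjusted p = 0.569). With HT-DNA it was 0.68 in WT cells (SE 0.05, adjusted p = 9.12e-13) and 0.08 in KO cells (95% interval −0.02 to 0.18, adjusted p = 0.533). Both differences between genotypes passed the test, at −0.36 for tau (SE 0.07, adjusted p = 0.000926) and −0.60 for HT-DNA (SE 0.07, adjusted p = 3.08e-08). The KO intervals bound any Stat3 response there below those measured in WT cells. Tau raised Stat3 less than HT-DNA did in WT cells, by −0.37 on the log2 scale (adjusted p = 2.45e-07).

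Stat6 moved little. It stood at 223, 220 and 224 CPM in WT vehicle libraries, at 225, 223 and 221 CPM with tau and at 254, 245 and 242 CPM with HT-DNA. In KO cells it was at 215, 215 and 213 CPM with vehicle, at 209, 212 and 218 CPM with tau and at 216, 216 and 223 CPM with HT-DNA. The WT HT-DNA libraries lay above all others, with a log2 fold change against vehicle of 0.15 (SE 0.04, adjusted p = 0.000935). KO and WT libraries did not overlap with vehicle (−0.06, adjusted p = 0.205) or tau (−0.07, adjusted p = 0.118) either, but neither difference passed the test in edgeR, while DESeq2 called the one with tau (−0.08, adjusted p = 0.0301). KO cells with HT-DNA were lower than WT cells by 0.18 (log2 fold change −0.18, adjusted p = 9.70e-05). The difference between the HT-DNA responses was −0.12 and missed the threshold (adjusted p = 0.0646), although it passed with RLE scaling (−0.16, adjusted p = 0.0167), with DESeq2 (−0.16, adjusted p = 0.00528) and in a fit of the 4 compared groups alone (−0.18, adjusted p = 0.00688).

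The paralogs Stat5b and Stat5a, which carry GM-CSF signals, showed no response to tau or HT-DNA against vehicle that passed the test. Stat5b stood at 53.3, 52.2 and 54.6 CPM in WT vehicle libraries, at 52.8, 53.0 and 49.5 CPM with tau and at 56.9, 60.5 and 51.9 CPM with HT-DNA. Its KO libraries ranged from 47.6 to 55.3 CPM. With HT-DNA, KO cells were lower than WT cells by 0.17 (log2 fold change −0.17, SE 0.06, adjusted p = 0.0114), a call that was lost without the second WT HT-DNA library (−0.12, adjusted p = 0.102).

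Stat5a was scarcer, at 9.53, 8.70 and 9.12 CPM in WT vehicle libraries, 9.49, 11.6 and 10.3 CPM with tau and 9.13, 8.40 and 7.97 CPM with HT-DNA. In KO cells it ranged from 8.76 to 10.4 CPM with vehicle, from 10.7 to 11.9 CPM with tau and from 9.39 to 9.70 CPM with HT-DNA. All 3 KO tau libraries lay above all KO vehicle libraries, but the log2 fold change of 0.25 missed the threshold (adjusted p = 0.0942). WT cells with tau exceeded WT cells with HT-DNA by 0.30 (SE 0.11, adjusted p = 0.0274). That call did not hold without WT tau library 2 (0.22, adjusted p = 0.177), WT HT-DNA library 2 (adjusted p = 0.0669) or WT HT-DNA library 3 (adjusted p = 0.101), nor with DESeq2 (adjusted p = 0.0721).

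Stat4, the effector of IL-12, had 0 to 4 counts in every microglial library, near or under the 3 counts that a count of 0 allows, so no difference between groups could be detected at this depth. Il12b, which encodes a subunit of IL-12 and is listed with the IL-12 and IL-23 genes, had 189 to 263 counts in the WT tau libraries. It had 139 to 158 counts in the KO tau libraries. It had 0 to 6 counts in the vehicle and HT-DNA libraries of both genotypes.

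Set against the share of all 13675 tested genes, the members' counts varied. With tau in WT cells 2 of 5 members rose, where 28% of all genes were called. With HT-DNA in WT cells 3 of 5 rose, where 47.4% were called. In the direct comparison of tau with HT-DNA in WT cells 1 was higher and 3 were lower with tau, where 34.9% were called. In KO cells 1 of 5 rose with tau (16.7% of all genes called) and 0 of 5 moved with HT-DNA (1.32% called, 0 of 5 also at an unadjusted p under 0.05 and 0 with DESeq2). KO cells had 1 member lower than WT with vehicle (52% called), 2 with tau (51.3% called) and 4 with HT-DNA (63.2% called). The difference between genotypes was called for 2 members under tau (6.91% of all genes called) and for 2 under HT-DNA (34% called). The shares called were farthest above the background for the tau by genotype difference and for tau against HT-DNA. They lay below it for KO against WT with vehicle and with tau, and for HT-DNA in KO cells (0 of 5). The same background applies to the counts of called genes in the microglial gene lists below. The comparisons share libraries. The vehicle libraries of a genotype serve both of its treatment comparisons, and the interactions reuse all of these libraries.

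**Figure D2:**
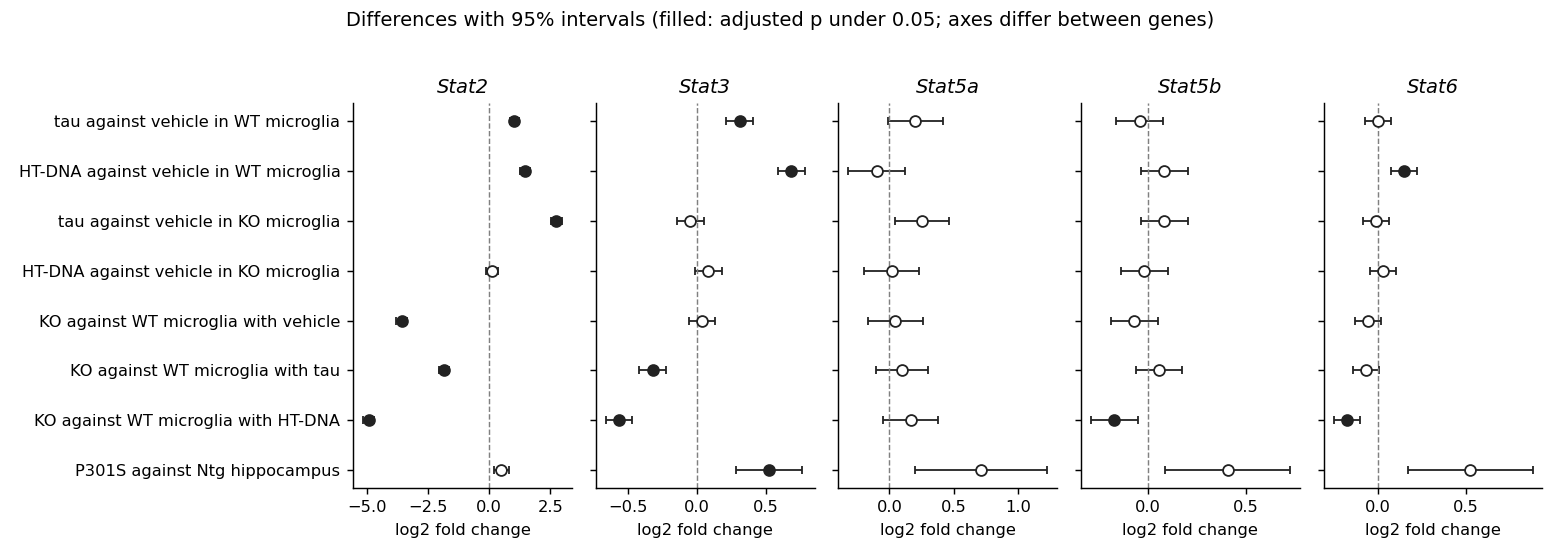
Log2 fold change (horizontal axis) of the 5 tested STAT genes in 8 comparisons, with 95% intervals from edgeR and filled points where the adjusted p is under 0.05. The Stat2 values of KO cells reach 2.74 with tau and lie near 0 with HT-DNA, and the P301S values of all 5 members lie between 0.41 and 0.71.

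Per kilobase of exon, the order of the members depended on genotype through Stat2. In WT cells with HT-DNA, Stat2 led at 133.8 CPM per kilobase, ahead of Stat6 at 56.1, Stat3 at 20.9, Stat5b at 10.2 and Stat5a at 1.19. With vehicle, Stat2 and Stat6 of WT cells were neighbours at 48.5 and 50.5 CPM per kilobase, and Stat2 ranged too widely among its libraries to place them. In KO cells with vehicle or HT-DNA, Stat2 stood below Stat6, Stat3 and Stat5b, and with tau it stood below Stat6 alone.

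By library, Stat2 and Stat3 correlated with r = 0.615 over the 18 microglial libraries, Stat3 and Stat6 with r = 0.876, and Stat5a and Stat5b with r = 0.0172. These correlations describe libraries that share groups and carry no test. The genes whose log2 CPM was most like that of Stat2 were Adar (r = 0.999), an RNA-editing enzyme with an interferon-inducible form, the predicted gene Gm5431 (r = 0.999) and Mx1 (r = 0.999), an antiviral GTPase. Closest to Stat3 were Itpkb (r = 0.984), an inositol trisphosphate kinase, Atf3 (r = 0.981), a stress-induced transcription factor, and Rab1a (r = 0.980), a GTPase of vesicle transport. For Stat6 they were Heatr5a (r = 0.962), Diaph1 (r = 0.960) and Jun (r = 0.958), and the best for Stat5a and Stat5b reached r = 0.864 (Ggta1) and r = 0.769 (Plin4).

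The ligands that feed the family differed between tau and HT-DNA. Ifnb1, the type I interferon gene upstream of STAT2, had 0 to 10 counts in WT vehicle libraries, 1 to 11 with tau, 71 to 96 with HT-DNA and 0 or 1 in every KO library. Only the WT HT-DNA group stood clear of vehicle (log2 fold change 4.44, adjusted p = 6.80e-07). Il6, whose cytokine signals through STAT3, had 0 to 2 counts in WT vehicle libraries, 29 to 61 with tau and 5 to 16 with HT-DNA. In KO cells it had 1 to 5 counts with vehicle and 30 to 40 with tau. Il6 thus rose with tau in both genotypes, by 5.51 in WT (adjusted p = 5.10e-08) and 3.03 in KO cells (adjusted p = 9.21e-05), while Stat3 itself rose in WT cells and passed no test in KO cells. Of the other ligands of the IL-6 family, Osm rose by 0.53 with tau and 1.42 with HT-DNA in WT cells, Il27 by 2.18 and 2.81, and Lif by 1.34 with HT-DNA. Il4, whose cytokine signals through STAT6, fell by 0.92 with tau and by 0.75 with HT-DNA (log2 fold changes −0.92 and −0.75). Il7, whose cytokine signals through STAT5, rose by 2.04 with HT-DNA.

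Among receptors, Ifnar1 rose by 0.12 with tau and 0.18 with HT-DNA in WT cells and Ifnar2 by 0.25 with HT-DNA. Thus 1 of 3 tested type I interferon genes was called with tau and 3 of 3 with HT-DNA. Ifnb1, the other gene tested, passed the filter on low counts largely through the WT HT-DNA libraries, so the filter favoured its call there. Over all genes, 28% were called with tau and 47.4% with HT-DNA in WT cells. Il10ra, the IL-10 receptor chain upstream of STAT3, rose in WT cells (0.42 with tau, 0.63 with HT-DNA) and in KO cells with tau (0.79). Il13ra1, a receptor chain upstream of STAT6, rose by 0.74 with tau and 1.29 with HT-DNA in WT cells, whereas its partner Il4ra fell by 0.35 with HT-DNA. Il2rg, the common gamma chain, rose by 0.49 with tau and 0.28 with HT-DNA. Csf2rb, the shared receptor chain for GM-CSF and IL-3 upstream of STAT5, rose by 0.36 with tau and 0.15 with HT-DNA, and Csf2rb2 by 0.17 with tau. With HT-DNA, Csf2ra rose by 0.17, Il3ra by 0.13 and Il7r by 0.57, so that 2 of 7 tested genes of this group rose with tau and 5 of 7 with HT-DNA. The interferon-gamma receptor split, with Ifngr2 up (0.28 with tau, 0.17 with HT-DNA) and Ifngr1 down with HT-DNA (−0.41). In the IL-6 family 3 of 9 tested genes rose and 1 fell with tau in WT cells, the fall being that of the signal transducer Il6st (−0.19), and 4 rose and 2 fell with HT-DNA, the falls being those of the receptor chains Il6ra (−0.21) and Il11ra1 (−0.23). Of the 3 tested IL-12 and IL-23 genes, Il12b rose with tau, and the receptor chain Il12rb2 fell with HT-DNA (−0.63). Il12b, like Il6, passed the filter largely through the tau groups, where its counts were high. In KO cells with HT-DNA, 1 gene of all these ligand and receptor groups was called, Il7r (0.21), where 1.32% of all genes were called.

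The JAK kinases rose together in WT cells, 3 of 4 with tau and 4 of 4 with HT-DNA, where 28% and 47.4% of all genes were called in either direction. Jak2 moved most, from 78.4 ± 9.55 CPM with vehicle to 174 ± 12.3 CPM with tau and 237 ± 10.5 CPM with HT-DNA (SD, n = 3 each), log2 fold changes of 1.14 (adjusted p = 2.62e-14) and 1.59 (adjusted p = 5.86e-18). Tyk2, the kinase paired with the type I interferon receptor, rose by 0.55 and 0.63, Jak1 by 0.23 and 0.27, and Jak3 by 0.35 with HT-DNA. In KO cells 3 of 4 rose with tau and 0 of 4 with HT-DNA by edgeR (1 at an unadjusted p under 0.05), Jak2 from 61.3 to 91.9 CPM with tau (log2 fold change 0.58). The tau response was smaller in KO cells for Jak2 (−0.56, adjusted p = 9.61e-05) and Tyk2 (−0.22, adjusted p = 0.0215), and the HT-DNA response was smaller for all 4 kinases. The interaction under tau was thus negative for Jak2 and Tyk2 and positive for Stat2.

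Of the 16 inhibitors of the pathway, 6 rose and 2 fell with tau in WT cells, and 8 rose and 3 fell with HT-DNA, so 8 and 11 of 16 were called against a background of 28% and 47.4%. Socs3, which blocks the receptors that feed STAT3, went from 7.0 CPM with vehicle to 25.5 CPM with tau and 16.5 CPM with HT-DNA in WT cells (log2 fold changes 1.87 and 1.24). In KO cells it was already at 21.3 CPM with vehicle and stood at 26.5 CPM with tau and 21.4 CPM with HT-DNA, so that KO vehicle cells exceeded WT vehicle cells by 1.61 (adjusted p = 4.24e-11). Socs1, which restrains interferon signalling, went from 5.82 to 11.3 CPM with tau and 14.8 CPM with HT-DNA in WT cells and from 1.92 to 5.83 CPM with tau in KO cells. Its KO vehicle level was below that of WT by 1.61 on the log2 scale (−1.61), the opposite side from Socs3. Socs7 rose by 0.41 and 0.74 in WT cells, the phosphatases Ptpn2 by 0.30 and 0.35, Ptpn6 by 0.42 and 0.50 and Ptpn11 by 0.19 and 0.20, with tau and HT-DNA respectively. Cish (1.27) and Pias1 (0.15) rose with HT-DNA. The genes that fell were Socs6 (−0.41 and −0.19) and Pias3 (−0.23 and −0.24) with both stimuli and Ptpn1 with HT-DNA (−0.51). In KO cells 3 rose and 1 fell with tau and 0 of 16 moved with HT-DNA by edgeR (1 at an unadjusted p under 0.05).

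**Figure D3:**
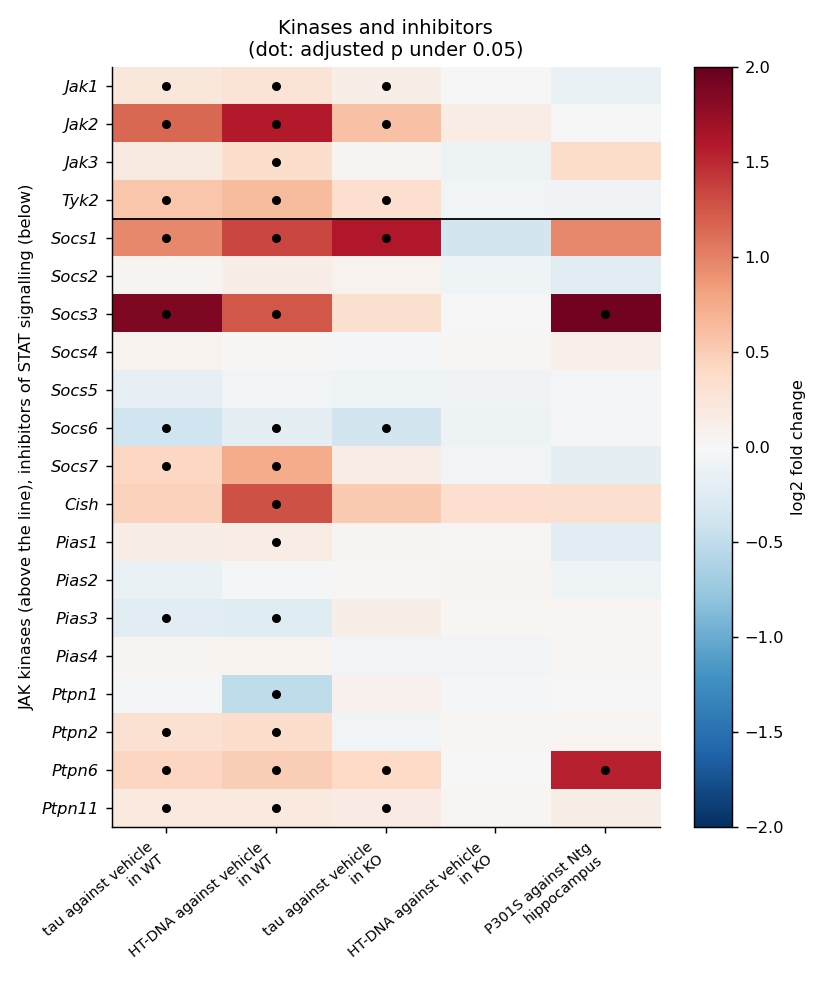
Heat map of log2 fold changes of the 4 JAK kinases and 16 STAT inhibitors (rows) in 5 comparisons (columns), with a dot where the adjusted p is under 0.05. Jak2 and Socs3 show the largest increases in WT microglia with tau, 1.14 and 1.87, and no gene carries a dot for HT-DNA in KO microglia.

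The targets of the STAT2–IRF9 complex, a list of 18 interferon-stimulated genes, rose in the same stimulated groups as Stat2. All 18 rose with tau in WT cells (median log2 fold change 1.57, against −0.01 over all genes) and 17 of 18 with HT-DNA (median 2.33, against −0.03). Cmpk2 led with 2.27 and 3.49, followed by Rsad2, which encodes the antiviral protein viperin, with 2.19 and 3.24, and Ifit2 with 2.07 and 3.04. The exception under HT-DNA was Irf9, the DNA-binding partner of STAT2, at 85.4 ± 4.54 CPM with vehicle and 90.4 ± 0.615 CPM with HT-DNA (log2 fold change 0.08, adjusted p = 0.207). With tau Irf9 rose to 102 ± 2.14 CPM (0.25, adjusted p = 0.000311), and it was the 1 gene of the list that was higher with tau than with HT-DNA, while the other 17 were lower with tau.

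In KO cells all 18 targets rose with tau (median 5.41), 0 of 18 with HT-DNA (median 0.59, with 8 of 18 at an unadjusted p under 0.05 in edgeR), and all 18 were below WT with vehicle (median −6.71). Ifit3 went from 1.42 CPM with vehicle to 111 CPM with tau in KO cells and from 406 to 1202 CPM in WT cells. The tau response was larger in KO cells for all 18 targets (median 3.69) and led by Ifit3 (4.72), Rtp4 (4.52) and Ifit1 (4.3). As for Stat2, the absolute levels of KO tau cells stayed below those of WT tau cells for all 18 (median −2.57). Under HT-DNA 12 of 18 responses were smaller in KO cells (median −1.48).

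The STAT3 targets divided more. In WT cells 11 of 15 rose with tau (median 0.51), led by Socs3, Fgl2 (1.74) and Lcn2 (1.69), and 11 rose and 2 fell with HT-DNA (median 0.61), with Fgl2 at 3.57, against the same background of 28% and 47.4%. In KO cells 7 of 15 rose with tau (median 0.20) and 0 of 15 with HT-DNA by edgeR, where 6 had an unadjusted p under 0.05. The tau response was smaller in KO cells for 6 and larger for none, with Socs3 (−1.56), Bcl3 (−0.76) and Junb (−0.57) at the head. These interactions are on the same side as that of Stat3 itself and on the opposite side from the STAT2–IRF9 targets. With vehicle, 7 STAT3 targets were higher and 5 lower in KO cells.

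Of 8 tested STAT5 targets, 4 rose with tau and 7 with HT-DNA in WT cells, against a background of 28% and 47.4%, led by the cyclin gene Ccnd2 (1.61 and 2.80), although neither Stat5a nor Stat5b rose. In KO cells 2 rose and 2 fell with tau. Of 5 tested STAT6 targets, 0 rose and 1 fell with tau in WT cells (Pparg, −1.19), and 2 rose and 1 fell with HT-DNA (Arg1 1.95, Mrc1 0.31, Egr2 −0.75). Arg1, the arginase of alternatively activated macrophages, was at 1.49 CPM in WT and 90.5 CPM in KO vehicle cells (log2 fold change 5.91, adjusted p = 9.49e-23), while Stat6 differed by −0.06 between the same groups. It fell with tau in KO cells (−0.62) and rose with HT-DNA in WT cells. STAT4 targets had 3 tested members, of which 0 moved with tau and 1 rose and 1 fell with HT-DNA in WT cells. Several genes stand on more than 1 list, such as Socs3 and Pim1, and the lists were chosen with earlier results of these data known.

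**Figure D4:**
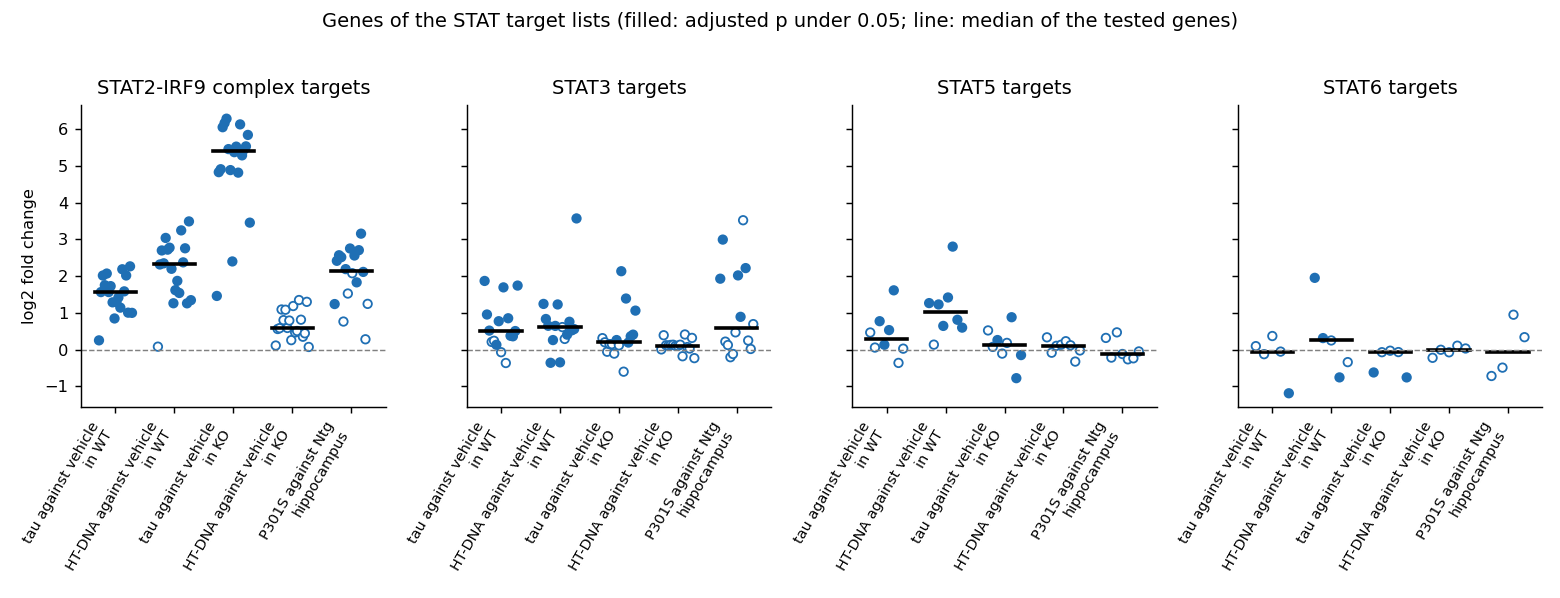
Log2 fold change (vertical axis) of each tested gene in the target lists of STAT2–IRF9, STAT3, STAT5 and STAT6 over 5 comparisons, with filled points for genes whose adjusted p is under 0.05. All 18 STAT2–IRF9 targets rise with tau in both genotypes, with a median of 5.41 in KO and 1.57 in WT microglia, and 0 of 18 are filled for HT-DNA in KO microglia.

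Cell-type markers moved with genotype in the cultures, where 52% of all genes were called between KO and WT cells with vehicle. With vehicle, 8 of 9 microglia and macrophage markers were lower in KO cells and 1 was higher, with summed levels of 8055 to 8677 CPM against 11034 to 11723 CPM in WT cells, and 7 of 8 tested homeostatic markers were lower. The disease-associated microglia markers went the other way, with 6 of 9 higher and 1 lower in KO cells and sums of 70472 to 72002 CPM against 60372 to 61039 CPM. Oligodendrocyte markers summed to 71 to 76 CPM in KO and 125 to 134 CPM in WT vehicle cells, and to 206 to 229 CPM in WT cells with HT-DNA. Endothelial markers summed to 20.9 to 25.0 CPM, 87.4 to 98.8 CPM and 276 to 280 CPM in the same groups. Only 2 of 6 endothelial markers passed the filter. In KO vehicle cells Cldn5, Pecam1, Cdh5 and Tek were at or under 3 counts, as were Mog, Mobp and Cldn11 of the oligodendrocyte list. Cldn5 and Tek were also at or under 3 counts in WT cells with vehicle or HT-DNA. These sums thus rest on part of each list and need not reflect such cells. Astrocyte markers were low but differed, at 7.66 to 8.10 CPM in WT cells with vehicle, 10.8 to 13.2 CPM with tau and 13.1 to 16.5 CPM with HT-DNA, and at 5.42 to 8.60 CPM over the KO groups. The part of these differences in the STAT results was not tested.

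In hippocampus the medians of the 5 tested members were all higher in P301S mice. In bulk tissue, a gain of cells that express a gene and more RNA per cell cannot be told apart. The log2 fold changes ran from 0.41 to 0.71, with a median of 0.52 against 0.00 over all genes, and 1 of 5 was called, where 1.51% of 16453 genes were called (229 up and 20 down). All 5 had an unadjusted p under 0.05, as did 2612 of the 16453 genes. The 1.51% called is also the background for the gene lists in hippocampus.

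**Figure D5:**
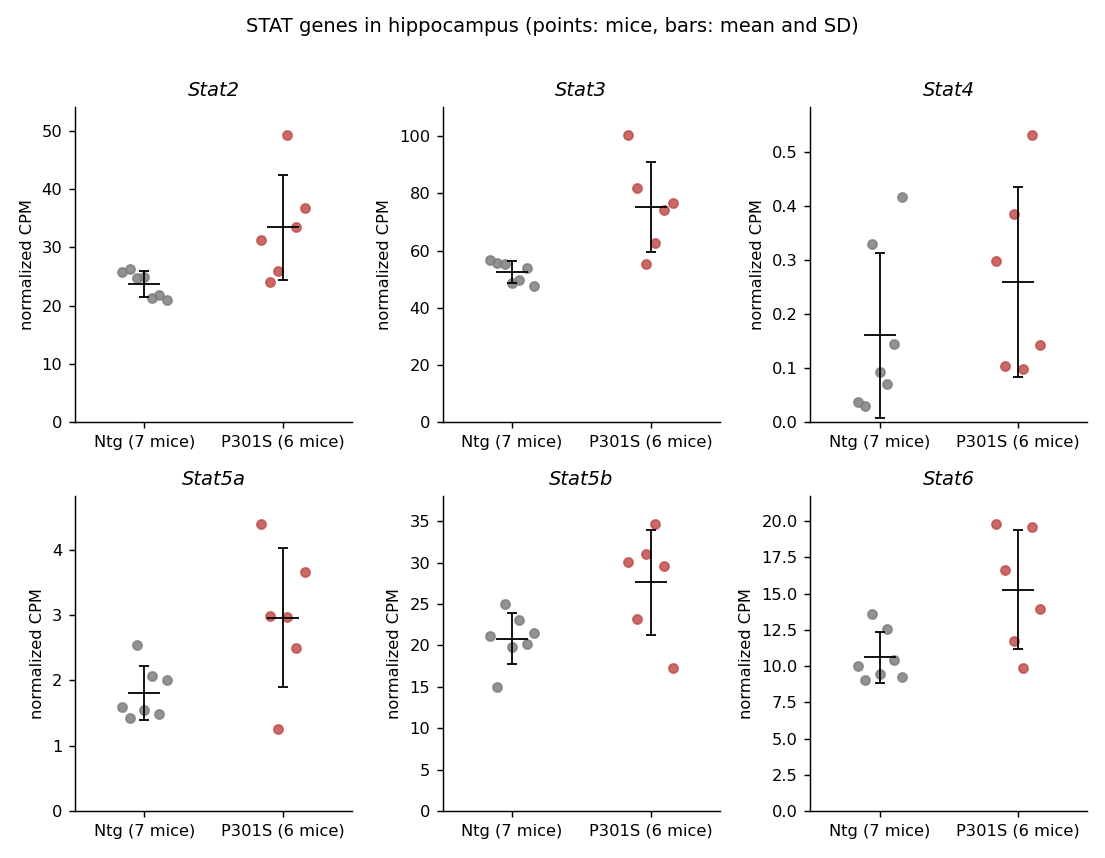
Normalized CPM (vertical axis, from 0, own scale in each panel) of the 6 STAT genes in each of 7 Ntg and 6 P301S hippocampi, with each mouse as a point and the mean ± SD as bars. For Stat3, 5 of 6 P301S mice lie above all Ntg mice, whose highest value is 56.7 CPM, and for every member the groups overlap.

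Stat3 was the member called. It had a lowest, median and highest level of 47.5, 53.8 and 56.7 CPM in Ntg mice. The 6 P301S mice, numbered 29, 36, 43, 63, 65 and 77, stood at 100.3, 82.0, 55.4, 62.8, 74.2 and 76.6 CPM. All P301S mice but mouse 43 lay above every Ntg mouse, and the P301S range was wider than the Ntg range. The log2 fold change was 0.52 (95% interval 0.28 to 0.76, adjusted p = 0.0384), and a two-sided exact permutation test on log2 CPM gave p = 0.00175, where the smallest p that 1716 splits allow is 0.000583. The adjusted p rose above 0.05 in 10 of 13 fits that left out 1 mouse, up to 0.0991 without mouse 36, stayed below it without mouse 43, 63 or 77, and was 0.0540 with sex as a covariate. The log2 fold change stayed between 0.42 and 0.59 over the 13 fits.

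Stat2 was at 21.0, 24.8 and 26.3 CPM (lowest, median, highest) in Ntg mice. In P301S mice it stood at 31.3, 24.1, 26.0, 49.2, 33.5 and 36.8 CPM, in the order of mice given for Stat3. The highest Stat2 was in mouse 63, whose Stat3 was the second lowest of the P301S group, so the 2 genes did not rank the mice alike. The log2 fold change was 0.50 (95% interval 0.20 to 0.80, adjusted p = 0.0854), and the exact permutation p was 0.00699. DESeq2 called Stat2 (adjusted p = 0.0211), as did the fit without mouse 43 (adjusted p = 0.0319).

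Stat6 was at 9.07, 9.996 and 13.6 CPM in Ntg mice and at 19.8, 16.6, 11.7, 9.89, 19.6 and 13.9 CPM in P301S mice, with a log2 fold change of 0.52 (adjusted p = 0.121, exact permutation p = 0.0245, adjusted p with DESeq2 0.0447). Stat5a was at 1.43, 1.59 and 2.54 CPM in Ntg mice and at 4.39, 2.98, 1.26, 2.97, 2.50 and 3.67 CPM in P301S mice, with a log2 fold change of 0.71 (adjusted p = 0.151, exact permutation p = 0.0373). Stat5b was at 15.02, 21.1 and 25.0 CPM in Ntg mice and at 30.0, 23.2, 31.0, 34.6, 29.6 and 17.2 CPM in P301S mice, with a log2 fold change of 0.41 (adjusted p = 0.185, exact permutation p = 0.0414). For Stat2, Stat5a, Stat5b and Stat6 alike, 4 of 6 P301S mice lay above all Ntg mice. Mouse 29 was among them for each of these genes, and the other 3 varied with the gene. Mouse 77 had the lowest Stat5b of the P301S group and the second highest Stat5a. Stat4 had 1 to 11 counts in Ntg and 3 to 14 counts in P301S mice, with 1 of 6 P301S mice above all Ntg mice (exact permutation p = 0.230). The 6 permutation p-values are raw.

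In both groups the order of levels, per kilobase and in CPM, was Stat3, Stat2, Stat5b, Stat6, Stat5a and Stat4. In Ntg mice Stat2 (21.0 to 26.3 CPM) and Stat5b (15.02 to 25.0 CPM) overlapped. Hippocampus thus carried Stat3 first, where WT microglia with tau or HT-DNA carried Stat2 first. The effect of the transgene did not differ between the sexes at the threshold for any member (0 of 5, where 0% of all genes were called by edgeR and 1 of 5 members and 3897 genes had an unadjusted p under 0.05). For Stat2 the P301S males stood at 31.3 to 49.2 CPM and the females at 24.1 to 33.5 CPM, and the male effect exceeded the female effect by 0.59 (adjusted p = 0.154).

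Around the members, 11 of 16 tested STAT2–IRF9 targets rose in P301S hippocampus (median 2.15), led by Ifi44 (3.15, adjusted p = 0.0303), Oas1a (2.75, adjusted p = 0.0362) and Usp18 (2.71, adjusted p = 0.0303). Irf9 rose from 7.56 to 17.9 CPM (1.24, adjusted p = 0.0303). Of 14 tested STAT3 targets 5 rose (median 0.58), namely Bcl3 (2.99), Gfap (2.22), Osmr (2.02), Socs3 (1.93) and Il4ra (0.89). Gfap is the filament protein of reactive astrocytes, and Osmr the receptor of oncostatin M. Of 7 STAT5 targets, 4 STAT6 targets, 1 STAT4 target and 4 JAK kinases 0 were called by edgeR, and 1 STAT5 target and 1 kinase had an unadjusted p under 0.05.

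Of the receptors, Il10ra rose from 4.20 to 8.41 CPM with no overlap between the groups (1.0, adjusted p = 0.0262), and Csf2rb (1.61, adjusted p = 0.0443) and Csf3r (1.35, adjusted p = 0.0303), receptor chains of GM-CSF and G-CSF, also rose. Of 16 inhibitors 2 rose, Socs3 from 1.27 to 4.84 CPM and the phosphatase gene Ptpn6 from 5.14 to 15.1 CPM (1.55, adjusted p = 0.0327). Socs3, Ptpn6, Il10ra and Csf2rb passed the test both in P301S tissue and in WT microglia with tau. Csf3r, Osmr and Il4ra, also called in P301S tissue, were not called in WT microglia with tau. Over all genes, 28% were called in WT microglia with tau and 1.51% in P301S tissue, and the share called in both was not computed. Jak2 and Tyk2, which rose in microglia, were at −0.01 and −0.08 in hippocampus. The type I interferon, interferon-gamma and IL-12 groups, each with 2 genes tested, had 0 called in hippocampus by edgeR, and 2 interferon-gamma receptor genes had an unadjusted p under 0.05.

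Glial markers moved with the P301S group and differed among its mice. Microglia and macrophage markers summed to 1440, 1315, 307, 364, 1541 and 692 CPM in mice 29, 36, 43, 63, 65 and 77, against 271 to 328 CPM in Ntg mice, and 5 of 9 rose. Astrocyte markers summed to 8218, 8771, 5005, 5267, 7802 and 6659 CPM, against 4728 to 5547 CPM, and 1 of 8 rose. That gene was Gfap, also on the STAT3 target list, with a mean of 372 CPM in Ntg and 1731 CPM in P301S mice. By edgeR, 9 of 9 microglia and macrophage markers and 6 of 8 astrocyte markers had an unadjusted p under 0.05. Mice 43 and 63, whose marker sums were in or near the Ntg range, had the lowest Stat3 and Stat6 of the group, but mouse 63 had the highest Stat2 and Stat5b. Disease-associated microglia markers summed to 1590 to 3900 CPM in P301S and 1589 to 2263 CPM in Ntg mice, with 4 of 9 up and 8 of 9 at an unadjusted p under 0.05 in edgeR. Homeostatic microglia markers summed to 757, 764, 353, 401, 761 and 560 CPM in the 6 P301S mice, against 362 to 446 CPM in Ntg mice, and oligodendrocyte markers to 4893 to 9210 CPM against 3890 to 7733 CPM. Of these and the neuronal and endothelial markers 0 were called by edgeR, but 6 of 7 oligodendrocyte markers (median log2 fold change 0.44), 3 of 9 homeostatic, 2 of 8 neuronal and 0 of 6 endothelial markers had an unadjusted p under 0.05. The part of oligodendrocyte and astrocyte content in the STAT differences was not tested. With the mean of the homeostatic microglia markers as a covariate, the Stat3 difference was 0.37 (adjusted p = 0.181), that of Stat6 went from 0.52 to 0.29 (adjusted p = 0.505) and that of Stat5a from 0.71 to 0.53 (adjusted p = 0.527), while Stat2 stood at 0.53 (adjusted p = 0.233) and Stat5b at 0.49 (adjusted p = 0.273). The homeostatic markers had a median log2 fold change of 0.19, against 1.69 for the microglia and macrophage markers, so they track microglial content only in part. The part of all microglial content in the STAT differences was not tested.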

How the data were processed

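Bulk RNA-seq was read from 18 microglial and 13 hippocampal libraries. The deposited files hold raw counts per gene for each library, made by the authors, and the submitters' processing notes name edgeR, limma and GRCm38. The labels describe the hippocampal libraries as 3′ libraries, which length scaling may not suit. The aligner, the counting tool and its strand setting are not given in the sources used here. The 2 experiments were never pooled. In each, genes were filtered with filterByExpr (13675 and 16453 left), scaled by TMM and fitted with edgeR 4.0.16 (R 4.3.3) in a quasi-likelihood model with 1 mean per group. All 6 microglial groups shared a fit. P-values were adjusted by Benjamini-Hochberg over all genes tested, with a threshold of 0.05. Intervals are 95%. In hippocampus an exact permutation test (7 against 6 mice) was added. It was not run on microglia, where an exact permutation test of 3 against 3 libraries cannot go below p = 0.1. Correlations used log2 CPM with a prior count of 2.

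Alternatives were DESeq2 1.42.0, RLE scaling, no filter, the study's fold thresholds, covariates, a replicate block, a fit of the compared groups alone and leaving out each library. The scripts were tested on simulated data. Of 54 pairs of libraries within a group, none was alike within sampling noise (chi-square per gene 2.28 to 126). The members, gene lists and tests were chosen with earlier results of these data known. Named genes were the members, up to 3 of the largest called changes per list and direction, and called receptors, kinases and inhibitors. Other genes of the family are not reported here.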

Additional observations from a re-analysis of the deposited data

Results flagged for a closer look

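The response to a stimulus differed between WT and KO microglia for Stat2 and Stat3, by the interaction term of edgeR's quasi-likelihood test. For Stat2 the tau response was larger in KO cells (log2 difference 1.72, adjusted p = 2.10e-09) and the HT-DNA response was smaller (−1.34, adjusted p = 4.15e-08). For Stat3 both responses were smaller in KO cells, by −0.36 with tau (adjusted p = 0.000926) and −0.60 with HT-DNA (adjusted p = 3.08e-08). The Stat2 difference under tau is a difference of ratios, since the KO vehicle level was 24.1 CPM and the WT vehicle level 288 CPM, and in CPM the WT increase was the larger (295 against 137 CPM). All 4 kept their sign and passed the threshold in each of the 12 fits that left out 1 library. Within the groups of 6 and 7 hippocampi, the gap of the highest or lowest mouse to its neighbour, as a share of the group's range, passed Dixon's 95% critical value for no STAT gene. This includes the highest Stat2 (49.2 CPM, mouse 63) and the highest Stat3 (100.3 CPM, mouse 29).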

How the results depend on the processing

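Over the refits of single members and comparisons, 794 values stayed on the same side of the threshold, 32 lost a call and 14 gained one. In 11 refits the sign was the other one, in 0 of them for a value that was called. With the study's fold thresholds added to the adjusted p, the count of STAT genes called became 1 with tau in WT cells, 1 with HT-DNA in WT cells, 0 for tau against HT-DNA, 1 for KO against WT with tau, 1 with HT-DNA, and 1 for each interaction. Stat2 was the gene that stayed called in these comparisons other than tau against HT-DNA. In P301S hippocampus the count of 1 became 0 with sex as a covariate, 0 with the homeostatic microglia marker mean as a covariate, 3 with DESeq2 and 0 to 3 when 1 mouse was left out, while the count over all genes lay between 14 and 946 in those fits. The 5 members under 0.05 in the exact permutation test became 2 to 5 without 1 mouse. The causes were not tested. The replicate block left the count of STAT genes unchanged in all 10 microglial comparisons (for example 2 with tau and 3 with HT-DNA in WT cells). Same-numbered libraries deviated with r between −0.085 and 0.0823 over 45 pairs, 0 of them above 0.1. These correlations showed no pairing by number, but a shared effect that is weak or limited to few genes could escape them. No paired analysis was possible in hippocampus because mouse numbers are not shared. RLE scaling moved the median of all genes by less than 0.1 in every comparison. Depth limits Stat4 in both tissues.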
